A study of Mus musculus with 6 samples.

Results

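Cytokine and growth hormone receptor genes were followed in mouse left ventricle as a list of 10: the receptor genes Il4ra, Osmr, Il6st, Il6ra, Lifr, Il1r1 and Ghr, the kinases Jak1 and Jak2, and the transcription factor Stat3. The platform annotation assigned a probe set to 9 of them, 1 probe set each, out of 19938 genes named on the array. Here and below, only probe sets with 1 gene symbol in that annotation are counted. Il1r1 matched no such probe set and is not analysed here. It belongs to the interleukin-1 receptor family, whereas the other receptors on the list are class I cytokine receptors. The list was drawn up with the comparison of these 6 arrays already known, so the differences of its genes are given as a description. No p value is printed for them. Where a gene of the list is said to pass the threshold, this is part of the description and not independent support. In 2MT hearts Il4ra, Osmr, Stat3 and Jak2 were lower and Ghr and Il6st higher than in saline hearts on every array. Such a lack of overlap was found in 21.1% of all genes tested. Il4ra, Ghr and Stat3 passed the threshold, and Osmr, Jak2 and Il6st did not. Il4ra differed most, with a gap of 0.53 between the groups, against 0.05 for Jak2 and 0.02 for Il6st. Il6ra, Lifr and Jak1 met or overlapped between the groups.

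The hearts came from 10-week-old male mice of the strain labelled C57/BL6, with 1 array per sample. Mice of the 2MT group (3 arrays) received 2-methyl-2-thiazoline, a small thiazoline compound, per the labels' protocols as a subcutaneous dose of 50 mg/kg, and their hearts were taken after 4 h. The saline group (3 arrays) carries the same protocol text, which speaks only of 2MT, and its treatment is given as saline in the sample labels. The stated purpose was to learn how 2MT protects the heart. No gene on the array can check which animals received the compound. The labels do not say that each array is a separate mouse, so p-values cover the spread among these 6 samples, part or all of which could be technical.

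Class I cytokine receptors have no kinase of their own. Ligand brings receptor chains together, the Janus kinases bound to them phosphorylate the chains, and STAT factors dock there, are phosphorylated and move to the nucleus. In heart muscle, gp130, the chain encoded by Il6st, is known as the shared signal carrier for interleukin-6, leukaemia inhibitory factor, oncostatin M and cardiotrophin-1, with STAT3 as its main factor, and growth hormone signals through its own receptor, JAK2 and STAT5.

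Signals are log2 values as deposited, and a difference is always 2MT minus saline on that scale. A gene is called when its adjusted p is under 0.05 in limma, fitted across all 10547 genes above the dim limit of 4.345, and all 9 measured genes of the list were above that limit. Over these genes Pearson's r was 0.992 to 0.995 between arrays within a group and 0.987 to 0.990 between a 2MT and a saline array. The cardiomyocyte markers Myh6, Actc1 and Tnnt2 lay between 12.8 and 13.2 on every array, while 0 of 6 neutrophil, 0 of 8 lymphocyte and 0 of 5 adipocyte markers with a probe set were above the dim limit. In bulk tissue, fewer cells of a type and less RNA per cell cannot be told apart.

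Il4ra, the receptor chain shared by interleukin-4 and interleukin-13 that signals through STAT6, had the largest difference of the 9 genes. Its signal was 5.61, 5.51 and 5.65 on the 2MT arrays, against 6.33, 6.26 and 6.18 on the saline arrays. All 2MT arrays lay below all saline arrays, with a gap of 0.53 between the groups. The means were 5.59 ± 0.072 in 2MT and 6.26 ± 0.075 in saline (SD, n = 3 each). The difference was -0.67 ± 0.081 (SE), or 1.59-fold lower in 2MT, a size that exceeded that of 99.3% of the genes tested. Leaving out 1 array at a time kept it between -0.70 and -0.63.

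The window from 250 bases before to 50 bases after the annotated start of Il4ra is shown because this gene differed most, with the first Lifr window beside it because both hold the same short motif. The sequences are RefSeq's, build GRCm38.p6, at chr7:125552021-125552320 and chr15:7129322-7129621, both on the plus strand, with the matched letters in capitals:
Il4ra: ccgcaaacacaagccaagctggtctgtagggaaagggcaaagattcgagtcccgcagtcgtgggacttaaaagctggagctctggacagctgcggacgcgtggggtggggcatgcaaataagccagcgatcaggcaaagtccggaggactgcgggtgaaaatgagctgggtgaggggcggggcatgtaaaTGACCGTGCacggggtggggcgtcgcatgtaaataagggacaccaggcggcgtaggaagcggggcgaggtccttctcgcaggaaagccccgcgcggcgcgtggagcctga
Lifr: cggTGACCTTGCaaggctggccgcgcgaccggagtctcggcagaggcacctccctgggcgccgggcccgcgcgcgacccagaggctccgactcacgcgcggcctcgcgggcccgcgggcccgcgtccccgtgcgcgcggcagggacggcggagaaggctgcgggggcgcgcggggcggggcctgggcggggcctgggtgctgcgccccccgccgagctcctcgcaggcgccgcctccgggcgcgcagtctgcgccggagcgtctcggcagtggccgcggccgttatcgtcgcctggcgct
The capitals mark TGACNNNGC, the core of the antioxidant response element bound by NRF2, which begins 60 bases before the start of Il4ra, at position -60, and at position -247 for Lifr. Both strands were searched. It was found in 2 of the 11 windows of the 9 genes and in 12.4% of 32851 windows of all genes. The STAT motif TTCNNNGAA was in 0 of the 11 windows and in 8.3% of all windows. Both motifs were chosen after the values were seen, and a match describes letters, not binding.

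The gp130 group held Il6st and the 3 chains that pair with it. Il6st was the only one of these 4 genes with a higher mean in 2MT. It had 8.65, 8.63 and 8.67 in 2MT, against 8.43, 8.61 and 8.52 in saline, so that the groups did not overlap but lay only 0.02 apart. Its difference was 0.13 ± 0.057 (SE), and it was 0.09 without saline 1 and 0.18 without saline 2. The 2MT arrays were close together, with an SD of 0.02 against 0.09 in saline.

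Osmr, the chain that binds oncostatin M with gp130, had 6.19, 6.48 and 6.30 in 2MT, against 6.62, 6.70 and 6.55 in saline. Every 2MT array was below every saline array, and 2MT 2 was nearest to them. The means were 6.32 ± 0.15 in 2MT and 6.62 ± 0.075 in saline (SD, n = 3 each), a difference of -0.30 ± 0.085 (SE). Osmr missed the threshold in the fit across all genes and passed it without 2MT 2, where the difference was -0.38.

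Il6ra, the interleukin-6 binding chain, had 5.30, 5.60 and 5.61 in 2MT, against 5.88, 5.61 and 5.65 in saline. The groups met at 5.61, and the difference of -0.21 ± 0.11 (SE) rested on 2MT 1, which was low, and saline 1, which was high: it was -0.11 without 2MT 1 and -0.13 without saline 1. Lifr, the chain for leukaemia inhibitory factor, had 7.55, 7.39 and 7.56 in 2MT, against 7.82, 7.70 and 7.48 in saline. The groups overlapped, with saline 3 among the 2MT arrays, and the difference of -0.17 ± 0.084 (SE) was -0.26 without saline 3 and -0.09 without saline 1. Osmr and Lifr are direct neighbours on chromosome 15 in the GRCm38.p6 annotation, with 0 protein-coding genes between them, and Ghr lies on the same chromosome with 16 between it and Osmr.

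Ghr, the growth hormone receptor, had the largest positive difference on the list. It had 8.37, 8.45 and 8.54 in 2MT, against 8.14, 8.17 and 8.26 in saline. Every 2MT array was above every saline array. The means were 8.45 ± 0.085 in 2MT and 8.19 ± 0.062 in saline (SD, n = 3 each), a difference of 0.26 ± 0.061 (SE), or 1.20-fold higher. The difference lay between 0.22 and 0.30 with 1 array left out.

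Among the signal carriers, Stat3 had the tightest arrays. It had 7.71, 7.76 and 7.67 in 2MT, against 7.97, 7.97 and 7.96 in saline. The saline SD was 0.0058, and the pooled SD of both groups was smaller in only 2.79% of all genes tested. The groups lay 0.20 apart, with a difference of -0.25 ± 0.056 (SE), or 1.19-fold lower in 2MT. The SE is larger than these arrays alone would give, because limma moves each gene's spread towards that of genes of like signal.

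Jak2, the kinase of the growth hormone receptor, had 6.82, 6.89 and 7.00 in 2MT, against 7.05, 7.10 and 7.10 in saline. The groups did not overlap, and the difference was -0.18 ± 0.069 (SE). Jak1, the main kinase of gp130 and of the interleukin-4 receptor, had 8.77, 8.90 and 8.90 in 2MT, against 8.88, 8.98 and 8.91 in saline. These groups overlapped, the difference of -0.07 ± 0.056 (SE) was the smallest of the 9, and it was -0.02 without 2MT 1 and -0.04 without saline 2.

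**Figure D1:**
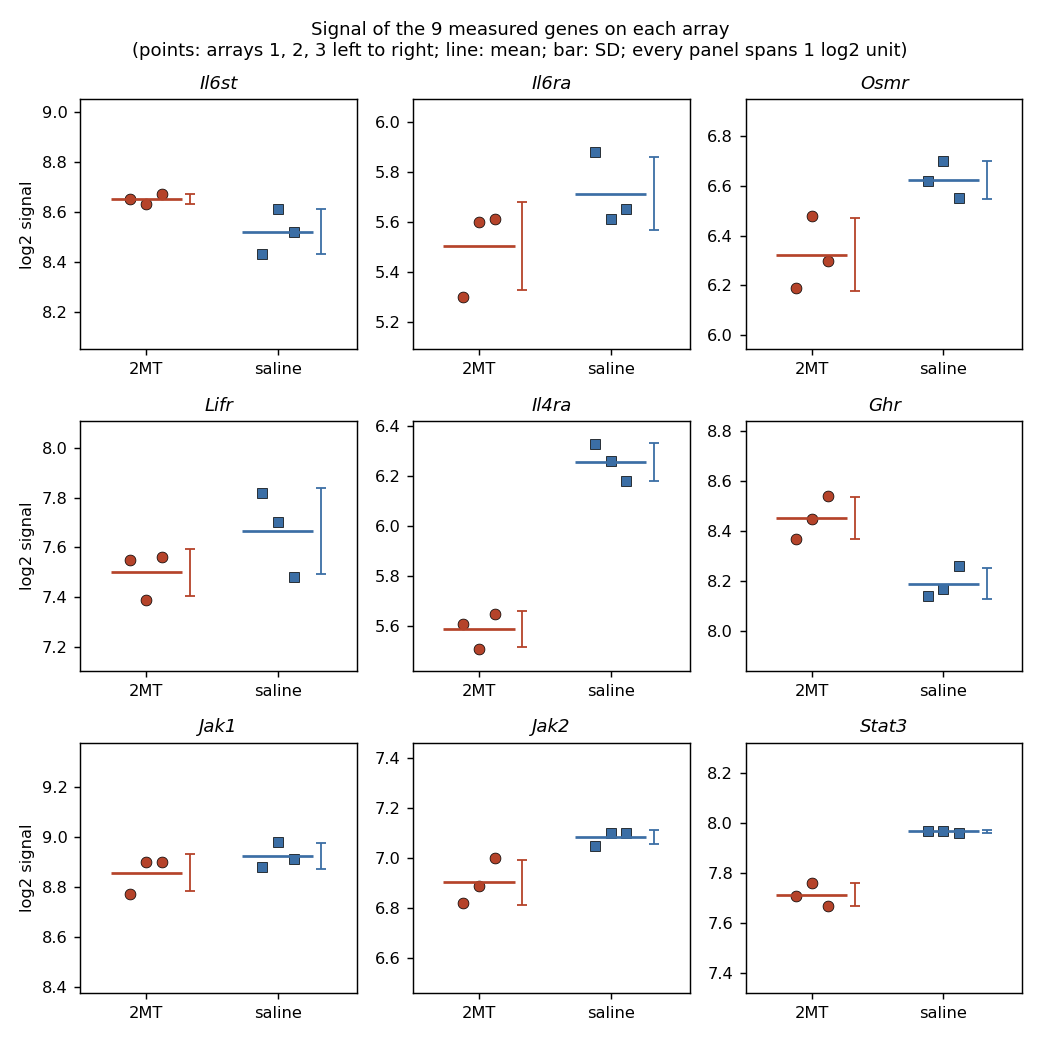
Log2 signal of the 9 measured genes on each array, 2MT left (red circles) and saline right (blue squares), with a line at each mean and a bar for the SD (n = 3). Every panel spans 1 log2 unit. Il4ra shows the widest gap between the groups, Ghr and Il6st lie higher in 2MT, and the 3 saline arrays of Stat3 lie within 7.96 to 7.97.

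Of the 9 genes, 3 were called, Ghr higher and Il4ra and Stat3 lower in 2MT, where 4.63% of all genes tested were called (2.22% higher, 2.41% lower). The groups did not overlap in 6 of the 9, with 2MT above in 2 and below in 4, against 21.1% of all genes tested (11.1% above, 10.1% below). Because the list was chosen with this comparison known, nothing is read from these shares. The mean was lower in 2MT in 7 genes and higher in 2, and the median difference was -0.18, beside 0.0033 over all genes tested.

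Il4ra was called under each of the 15 other settings and Ghr and Stat3 under 10 each. The call of Ghr ended without saline 1, saline 2, 2MT 2 or 2MT 3, that of Stat3 without saline 1, saline 2, 2MT 1 or 2MT 3, and both ended without the variance trend. The difference of Stat3 itself stayed between -0.28 and -0.23 with 1 array left out. Over all genes tested, 262 to 354 were called in these settings, against 488 with all arrays and the trend. With saline 1 or 2MT 3 or saline 2 left out, 1 of the 9 genes was called in place of 3.

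**Figure D2:**
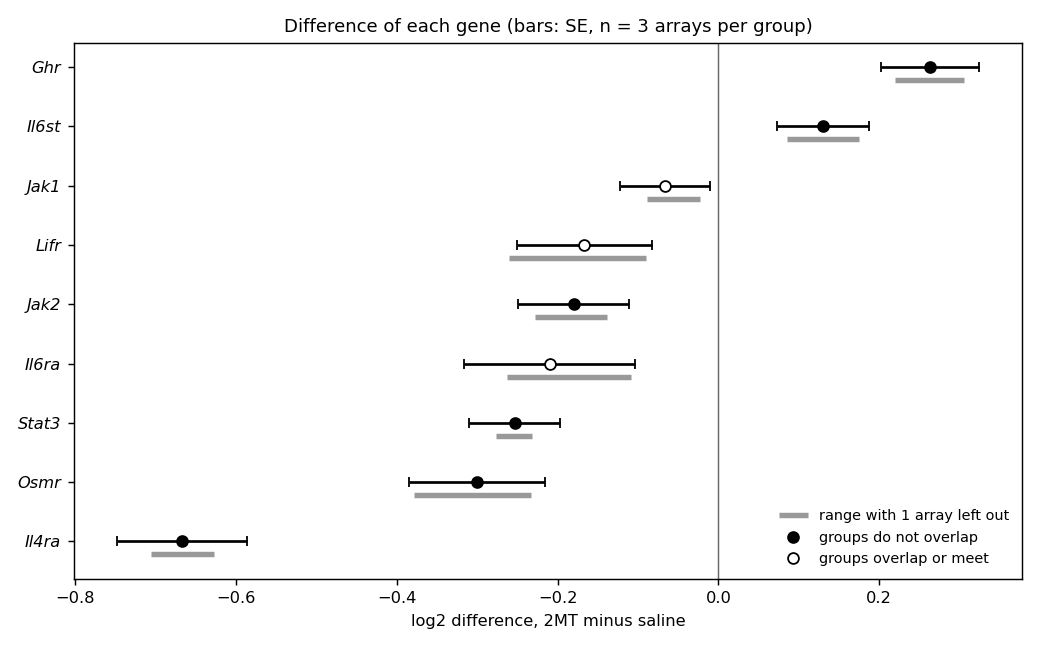
Log2 difference, 2MT minus saline, of each of the 9 genes (points, with SE bars, n = 3 arrays per group), and below each the range of that difference with 1 array left out (grey). Filled points mark the 6 genes whose groups did not overlap. All 9 grey ranges stay on 1 side of 0, and that of Jak1 reaches -0.02.

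The patterns most like those of the 3 genes with the largest differences were found by Pearson's r over the 6 arrays, a measure that mostly follows the split between the groups. For Il4ra they were Synpo2, Srxn1 and Tmem100 (r = 0.997, 0.996 and 0.996). Of these, Synpo2 differed by -0.58, Tmem100 by -0.62 and Srxn1, which repairs overoxidised peroxiredoxins, by -2.76. For Osmr they were Dr1, Serpina3n and Tbc1d23 (r = 0.984, 0.983 and 0.982), which differed by -0.15, -0.68 and -0.18. For Ghr they were Cdyl2, Maml1 and Zfp933 (r = 0.996, 0.991 and 0.991), which differed by 0.26, 0.23 and 0.25. Of the genes most like Osmr and Ghr, Serpina3n alone was called.

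Around the list, 138 other genes of cytokine signalling were grouped by role, of which 128 had a probe set and 77 were above the dim limit. Of the 77, 11 (14.3%) changed, 6 higher and 5 lower in 2MT, beside 4.63% of all genes tested. The median difference of the 77 was 0.02. These lists too were chosen with earlier results of these data known, so nothing is read from this share. The p-values printed for their genes are likewise not independent support.

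Of 7 other class I receptors tested, 1 fell: Csf2rb2, a beta chain of the interleukin-3 receptor, by 0.40 ± 0.10 (SE), to 4.40 ± 0.13 in 2MT, against 4.80 ± 0.05 in saline (SD, n = 3, limma adjusted p = 0.042). It lies close to the dim limit, and with an offset of 16 added before log2 the difference was -0.24. Its probe set may also read the near-identical Csf2rb, and its call ended with any 1 of the 6 arrays left out (adjusted p up to 0.19). Il13ra1, which forms the interleukin-13 receptor with the product of Il4ra, had 7.08, 7.10 and 7.06 in 2MT, against 6.51, 6.78 and 7.01 in saline. The groups did not overlap, the difference was 0.31 ± 0.10 (SE, limma adjusted p = 0.10), and it ranged with 1 array left out from 0.18 without saline 1 (adjusted p = 0.32) to 0.43 without saline 3, where alone it passed (adjusted p = 0.012). Of the 2 other interleukin-1 receptor family genes above the dim limit, Il1rap and Sigirr, 0 changed in limma, also at an unadjusted p under 0.05.

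Of 19 ligand genes with a probe set, 16 were under the dim limit, among them Il6, Lif, Osm, Il11, Il4 and Il13. Of the 3 tested, Il33, Il27 and Ctf1, 0 changed in limma (1 at an unadjusted p under 0.05). Il33, an alarmin whose receptor includes the chain encoded by Il1rap, averaged 5.22 ± 0.16 on 2MT arrays and 4.80 ± 0.19 on saline arrays (SD, n = 3, limma adjusted p = 0.062), a difference of 0.41 that was 0.28 with the offset and that passed without saline 2 alone (adjusted p = 0.041).

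Of 5 other kinases and STAT genes, Tyk2, Stat2, Stat5a, Stat5b and Stat6, 0 changed in limma, also at an unadjusted p under 0.05. Stat6, the factor of the interleukin-4 receptor, differed by 0.04 ± 0.066 (SE). Stat5a and Stat5b, the factors of the growth hormone receptor, differed by 0.15 ± 0.086 and 0.11 ± 0.082 (SE), with groups that overlapped. Stat5a was at 0.09 without saline 3, and Stat5b ran from 0.03 without 2MT 1 to 0.18 without 2MT 2.

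Of 16 inhibitors of the pathway, 2 rose and 0 fell. Both are known to be induced by STAT5 and to act back on receptors such as the growth hormone receptor. STAT5 activity was not measured, and its part in these rises was not tested. Cish had 8.04, 7.44 and 7.36 in 2MT, against 6.27, 6.26 and 5.94 in saline (1.46 ± 0.14, SE, limma adjusted p = 3.9e-05). Socs2 had 8.50, 8.16 and 8.19 in 2MT, against 7.67, 7.51 and 7.23 in saline (0.81 ± 0.11, SE, limma adjusted p = 0.00047). Both were called in each of 15 other settings. Socs3, the inhibitor known to be induced by STAT3, averaged 5.01 ± 0.13 on 2MT arrays and 5.05 ± 0.34 on saline arrays (SD, n = 3, limma adjusted p = 0.93).

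Of 15 adaptors, 3 changed. Irs1, a docking protein of the insulin and interleukin-4 receptors, rose by 0.61 ± 0.083 (SE, limma adjusted p = 0.00065), though the mean of its probe sets rose less and did not pass (0.34, adjusted p = 0.13). Irak3, which restrains interleukin-1 receptor signalling, fell by 0.45 ± 0.087 (SE, limma adjusted p = 0.0080) and was called in each of 15 other settings. Ptpn11, the phosphatase SHP2 that binds gp130, fell by 0.29 ± 0.065 (SE, limma adjusted p = 0.021), a call that ended without saline 1, saline 2 or 2MT 2 (adjusted p up to 0.098).

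Of 15 tested genes that gp130 and STAT3 are known to induce, 2 fell and 1 rose, and their median difference was -0.15. Myc fell by 1.44 ± 0.13 (SE, limma adjusted p = 1.5e-05), to 4.16 in 2MT, under the dim limit, against 5.60 in saline. The size of that fall depends on how dim signal is handled, and with an offset of 16 added before log2 the difference was -0.93 (adjusted p = 2.0e-05). Serpina3n, an acute phase protease inhibitor from a family of close copies, fell by 0.68 ± 0.13 (SE, limma adjusted p = 0.0069). Mcl1, a survival factor, rose by 0.27 ± 0.065 (SE, limma adjusted p = 0.031), a call that ended without saline 1, 2MT 1 or 2MT 3 (adjusted p up to 0.17). Of 7 growth hormone and STAT5 targets, Pik3r1, which encodes a subunit of a lipid kinase used by insulin and cytokine receptors, rose by 0.38 ± 0.071 (SE, limma adjusted p = 0.0065), and Igf1 averaged 6.01 ± 0.20 on 2MT arrays and 5.95 ± 0.12 on saline arrays (SD, n = 3, limma adjusted p = 0.81). Without the variance trend the calls of Ptpn11 (adjusted p = 0.11), Mcl1 (0.12) and Pik3r1 (0.056) ended, and with no dim filter so did those of Mcl1 (0.053) and Csf2rb2 (0.073).

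**Figure D3:**
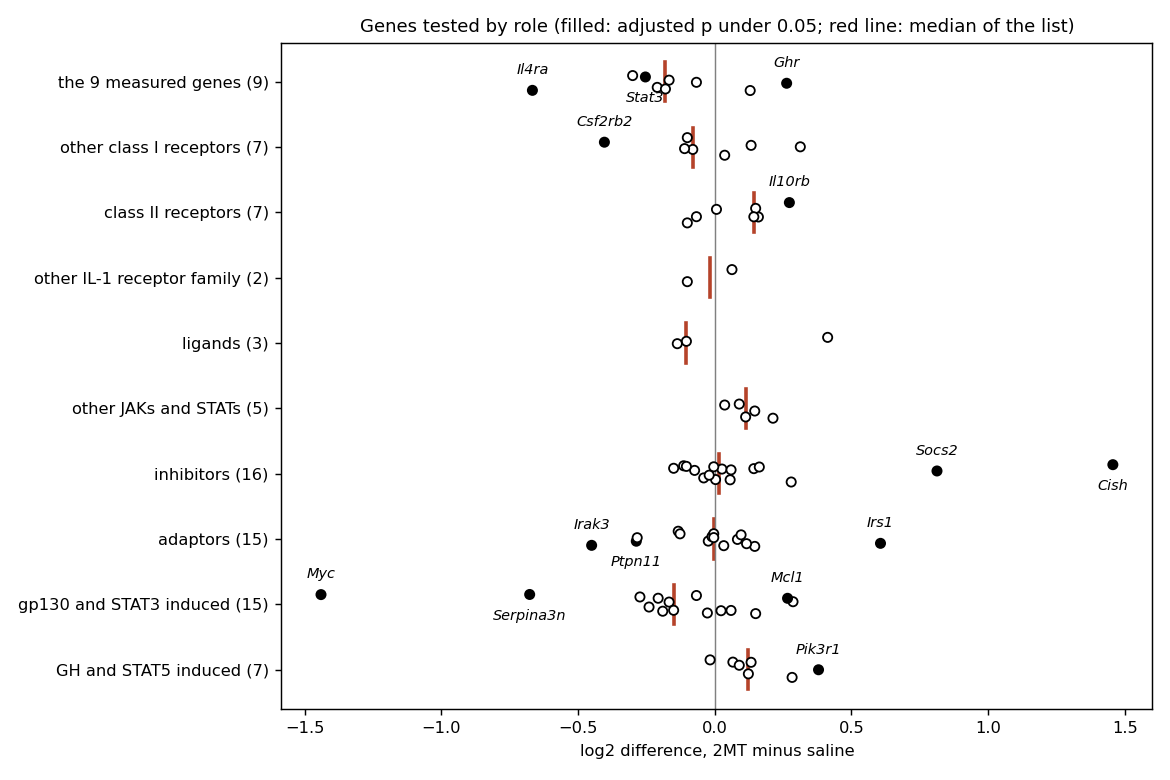
Log2 difference, 2MT minus saline, of the 9 measured genes and of 77 other genes tested, by role, with the number of genes in brackets. Filled points are genes with an adjusted p under 0.05, and red lines are list medians. Cish lies at 1.46, and Myc, whose 2MT signal was under the dim limit, at -1.44.

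Several of the receptor genes are also expressed by blood, vessel wall or connective tissue cells. Over 11 macrophage markers the summed signal was 1108 to 1221 in 2MT and 1105 to 1346 in saline, and 0 of the 10 tested were called. Over 10 fibroblast markers it was 4591 to 4969.5 in 2MT and 4657 to 4874 in saline, with 0 called. Over 12 cardiomyocyte markers it was 62197 to 63749 in 2MT and 61435 to 61707 in saline. Every 2MT array was thus above every saline array in this sum, with 0 of the 12 markers called. Over 10 endothelial markers it was 1834 to 2056 in 2MT and 1768 to 2074 in saline, and Pecam1 alone fell, by 0.33 ± 0.074 (SE, limma adjusted p = 0.020). Saline 3 had the highest sum of 3 erythrocyte markers, 260.4 against 129 to 154 in 2MT and 130.4 to 137 on the other saline arrays, and saline 2 had the highest sum of 4 atrial markers, 138 against 52.6 to 59.7 in 2MT. Their part in the differences was not tested. Without saline 3, Il4ra differed by -0.70, Ghr by 0.30 and Stat3 by -0.26, and without saline 2 by -0.66, 0.25 and -0.25, in that order.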

How the data were processed

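RNA of 6 left ventricles was measured on 1 Affymetrix array each. The authors deposited 1 log2 value per probe set and array, from 0.51 to 13.5, with array medians of 4.32 to 4.37. The log base is taken from that range. The submitters' processing notes name MAS5 without a role, and how the authors normalized the arrays is not given in the sources used here. Values were used as deposited, with no further scaling. Arrays carry no count depth and no detection calls were used, so precision rests on the number of arrays.

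Of 28944 probe sets, 21789 had 1 gene symbol in the platform annotation, 1621 several and 5534 none here. Each of 19938 genes was represented by its probe set of highest mean, and genes whose mean lay below 4.345, the median over probe sets, were dropped as dim, which left 10547. The test was limma 3.58.1 under R 4.3.3 (lmFit, eBayes with a variance trend, two-sided, group as the only term) and Benjamini-Hochberg adjustment over all genes tested. An exact permutation test of 3 against 3 cannot go below 0.1. Simulated data took the mean and spread of each of 10547 genes from this comparison, with independent noise and no effect shared within an array. Of 50 genes changed at each size, 40% were recovered at 1.25-fold, 86% at 1.5-fold and 98% at 2-fold. There were 11 false calls, 6.36% of all calls. Real arrays may share such effects, so these rates may not hold for them.

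The members, the lists of other genes and the markers were chosen with earlier results of these data known. The text names every member, each called gene of the other lists, and up to 3 genes of smallest p per list. Of the last, Csf2ra, Ptpn6, Igfals and Bcl2 are given only here. They differed by 0.13, 0.28, 0.28 and 0.13, and none was called, though the groups did not overlap in Igfals. Dim ligands and Ifnar1, Stat2, Stat6, Socs3 and Igf1, named beyond this, were added after the values were seen. Alternatives were other scalings, other dim filters, averaging the probe sets of a gene, an added offset, each probe set alone, no variance trend, a replicate block, each array left out and another threshold. Plots used matplotlib 3.10.9 (Python 3.11.15).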

Additional observations from a re-analysis of the deposited data

How the results depend on the processing

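The differences of the 9 genes kept their direction under all 144 combinations of gene and setting, and 143 moved by less than 1 SD between replicates. The exception was Il4ra with an offset of 16 added before log2, at -0.53. The other dim filters, dropping the variance trend and the replicate block cannot change a gene's difference. For these settings the kept direction was fixed in advance, and only the SE or the call could move. Without the variance trend 292 genes were called in place of 488, with 1 of the 9 and 7 of the 77 other pathway genes in place of 3 and 11, and at an adjusted p of 0.1 there were 768. With 1 array left out the count over all genes ran from 262 without 2MT 3 to 648 without saline 3, and was 276 without 2MT 2 and 298 without saline 1. It ran from 1 to 3 for the 9 genes and from 7, without saline 1, to 12 for the others. The cause was not tested. Of 380 values of 26 other named genes, 353 kept direction and side of the threshold, 23 lost and 2 gained a call, and Ctf1, at -0.10, turned to 0.0067 without 2MT 1 and to 0.11 without saline 1, in a range from -0.23 to 0.11. With the replicate number as a block, 586 genes were called, Osmr among them. Deviations of same-numbered arrays correlated at only 0.022 to 0.070, so the numbers were not taken to pair the samples. As a hint the other way, 5 of 6 arrays correlated best with their own number. No detection calls were used, so the size of a change in a dim gene is uncertain in either direction. Each member has 1 probe set, so the mean of probe sets and each probe set alone gave the same differences.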

Other observations

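Receptors of class II, which serve interferons and interleukin-10, had a median difference of 0.14. Of 7 tested, 1 rose: Il10rb, the shared chain of the interleukin-10 receptor, which had 9.15, 9.16 and 9.19 in 2MT, against 8.73, 8.97 and 8.98 in saline (0.27 ± 0.065, SE, limma adjusted p = 0.027). Its call ended without saline 1 or any 2MT array (adjusted p up to 0.13) and without the variance trend (0.12), and without saline 1 the difference was 0.19. All 2MT arrays also lay above all saline arrays in the interferon receptor genes Ifngr2, at 10.09 ± 0.0058 in 2MT and 9.95 ± 0.056 in saline (limma adjusted p = 0.11), Ifngr1, at 7.84 ± 0.085 in 2MT and 7.69 ± 0.032 in saline (limma adjusted p = 0.22), and Ifnar1, at 6.17 ± 0.040 in 2MT and 6.01 ± 0.055 in saline (limma adjusted p = 0.29; SD, n = 3 each). Such a gap with 2MT above was found in 4 of the 7, beside 11.1% of all genes tested. Nothing is read from this share, because the list was chosen with earlier results of these data known. The difference between the classes was not tested.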
